A study of Rattus norvegicus with 12 samples.

Results

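Albumin and the acute-phase plasma proteins were examined as the transcripts of 10 liver genes chosen by name, namely Alb, Ahsg, Hp, Hpx, Crp, Orm1, A2m, Saa4, Lcn2 and Cp. Rows of the deposited table that bear these names were found for 8 of the 10 genes and amounted to 11 transcript rows of 34391 in all. No row was named Ahsg or Saa4. Fetuin-A, the protein that Ahsg encodes, was listed in 2 rows under its UniProt entry name FETUA_RAT, and these are described here under that name and are not counted among the 11. Saa4 was not analysed here.

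Hepatocytes secrete most of the proteins of blood plasma, and albumin, which carries fatty acids, hormones and drugs and holds water in the vessels, is the most abundant of them. After infection or injury, interleukin-6 and interleukin-1 from macrophages reach the hepatocyte, and STAT3, C/EBP and NF-kappaB factors then raise the genes of the positive acute-phase proteins. Output of the negative acute-phase proteins, albumin, fetuin-A and transthyretin among them, falls in the same response. Species differ in their main reactants: alpha-2-macroglobulin and alpha-1-acid glycoprotein are strong reactants in the rat, whereas rat C-reactive protein is plentiful in healthy animals.

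The livers came from 12 adult females of the inbred alcohol-preferring rat strain iP10a. The 6 EtOH animals had bottles of 10, 20 and 30% ethanol beside water for 23 weeks, drank by choice and were not pair-fed, and the 6 control animals had water only. All had food at will and were 38 weeks old at collection, except EtOH animal 6, which was 39 weeks old. Poly(A) RNA of each liver was sequenced as 1 barcoded library, all in the same lane, and the level of a transcript was given as RPKM, the reads per kilobase of transcript, scaled to the mapped reads of the library.

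In each comparison RPKM was scaled between livers by the median ratio, log2 was taken after adding 0.5, and the groups were compared with limma. The threshold for calling a transcript was an adjusted p of 0.05. Of the 21718 transcripts above 0 in at least 1 liver, 531 were called (2.44%), 194 of them higher in EtOH livers (0.893%) and 337 lower (1.55%). The whole reads behind the RPKM numbered between 2610238 and 4318141 per control liver and between 3945593 and 6030028 per EtOH liver. The EtOH libraries were thus the deeper ones on average, although the ranges overlapped. Hepatocyte markers were plentiful, with Ttr at 5458 ± 612 RPKM in control livers (SD, n = 6), and 2 of the 6 tested were called higher in EtOH livers, Cps1 at 586 ± 61.3 and 850 ± 103 RPKM (limma adjusted p = 0.0092) and Cyp2e1 at 2187 ± 214 and 2731 ± 208 RPKM (limma adjusted p = 0.037). The others, Serpina1, Fgb, Ttr and Tat, were not called and had log2 differences of 0.24, 0.02, −0.002 and −0.14. The summed RPKM of the 6 ran from 13006 to 15751 in control and from 14359 to 16679 in EtOH livers (exact permutation p = 0.23). Of 9 neutrophil markers, Mpo, Elane and Ltf were listed at 0 in every liver and the other 6 were above 0 in some liver, and the 3 adipocyte markers Adipoq, Plin1 and Lep were listed at 0 in every liver. In bulk liver, fewer cells of a type and less RNA per cell cannot be told apart.

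None of the 11 rows of the 8 genes was called between EtOH and control livers by limma, and 2 of them, Crp and A2m, had an unadjusted p below 0.05, against 16.0% of all transcripts tested. With voom on the recovered reads 1 of them, Crp, was called. Mean RPKM as deposited was higher in EtOH livers for Alb, Crp, A2m and Lcn2 and lower for Hp, Hpx, Cp and Orm1. RPKM did not overlap between groups for 1 of the 11 rows, that of Crp, against 3.10% of all transcripts. Outside the 11 rows, the minor row of fetuin-A was called and was higher in EtOH livers.

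**Figure D1:**
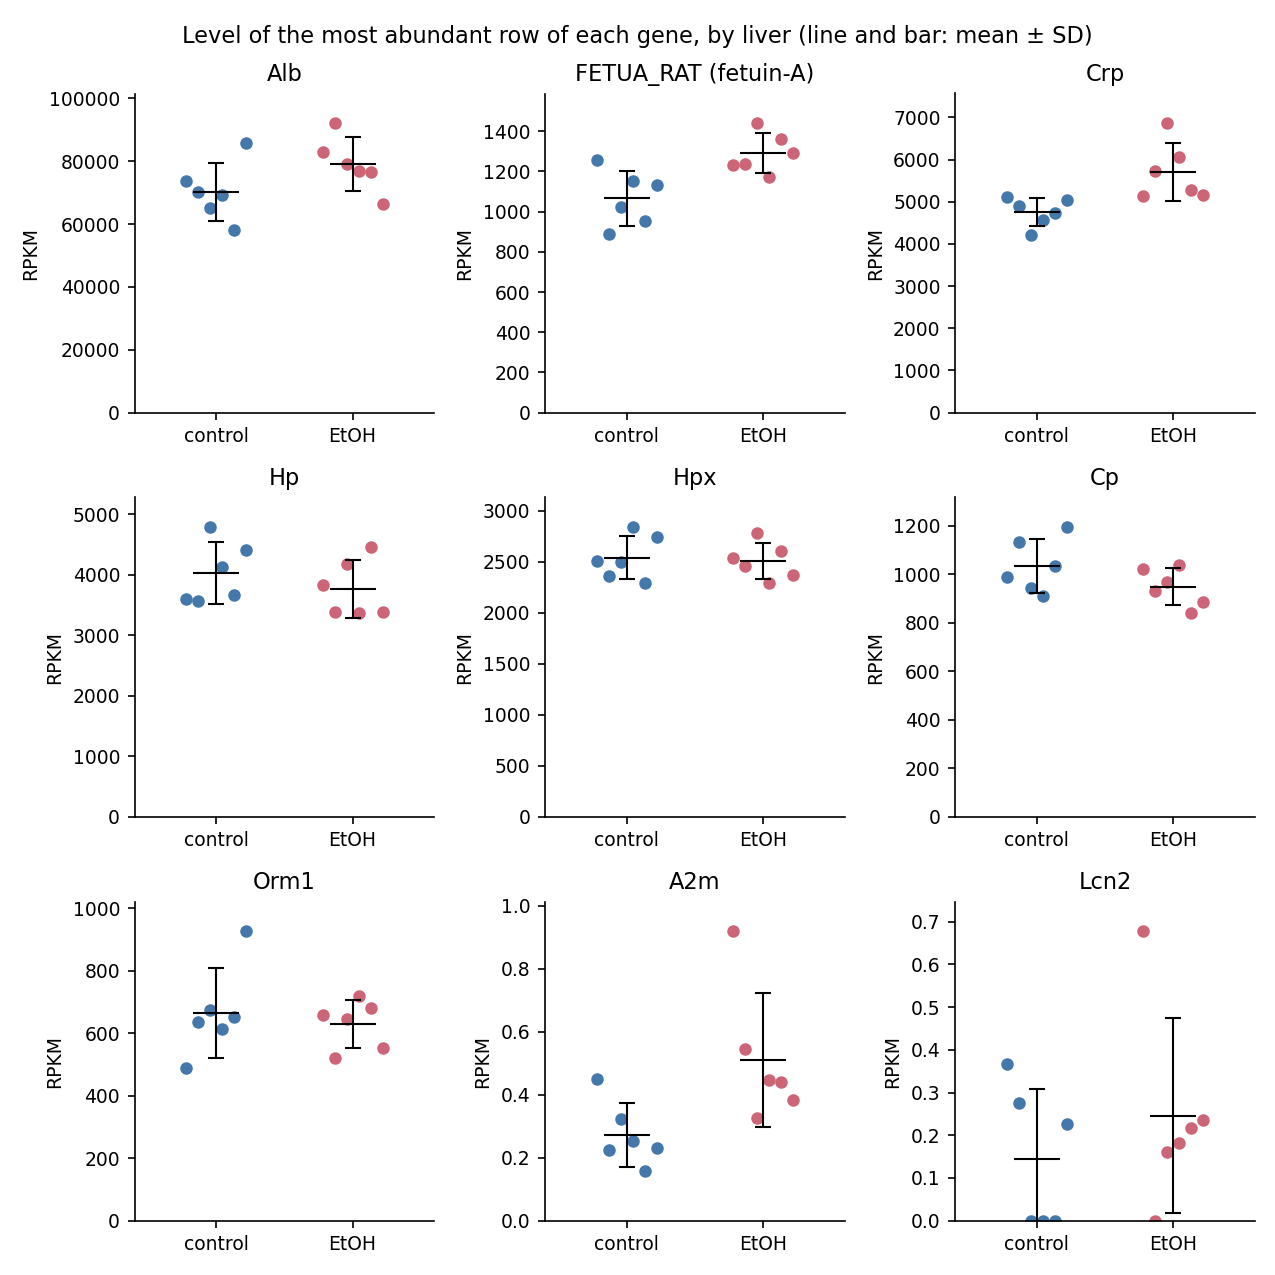
RPKM of the most abundant row of 8 genes and of fetuin-A in each liver, on linear axes that start at 0; points are single livers in the order of their numbers, lines are means and bars are SD (n = 6 per group). Crp is the only panel in which the groups do not overlap, the lowest EtOH liver being at 5127 RPKM and the highest control at 5110 RPKM.

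Albumin was the most abundant of all listed transcripts in each of the 12 livers. The Alb row, listed on chromosome 14 from 19126953 to 19142214 in the coordinates of the deposited table, rested on 425975 to 1052336 reads per liver. Alb RPKM ran from 57999 through a median of 69730 to 85653 in control livers and from 66353 through 78143 to 92323 in EtOH livers. The ranges overlapped widely, and control 6 was the only control liver above the EtOH median. The means were 70352 ± 9238 RPKM in control and 79085 ± 8514 RPKM in EtOH livers (SD, n = 6 each). On the median-scaled log2 scale the difference was 0.26 ± 0.28 (SE, 95% interval −0.34 to 0.87), with a limma adjusted p of 0.67. The SE was smaller without the trend of the fit, and the limma adjusted p was then 0.33. Over the other settings on a log2 scale the adjusted p lay between 0.17 and 0.77. Quantile normalization is left out of this range, since it gives Alb the same value in every liver and cannot show a difference.

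Because Alb took so much of each library, it was also expressed as a share of the summed RPKM of the liver. Alb made up 10.6 to 15.7% of all RPKM in control livers and 12.5 to 17.5% in EtOH livers. The mean share was 12.8 ± 1.81% in control and 15.0 ± 1.70% in EtOH livers (SD, n = 6), a difference of 2.16 percentage points with p = 0.061 by the two-sided exact permutation test over the 924 regroupings of the livers. Without control 6, the control liver with the highest share, the ratio of the mean shares was 1.22 (exact permutation p = 0.017), and without EtOH 6, the liver of the 39-week-old animal and the lowest EtOH share, it was 1.21 (exact permutation p = 0.026). Every other fit without 1 liver gave an exact permutation p above 0.05, the range over all such fits being 0.017 to 0.13. Over all transcripts, 14.9% had a p below 0.05 in this share test. As a share of recovered reads, which counts long transcripts more, Alb took 15.4 ± 1.98% in control and 17.5 ± 1.87% in EtOH livers (exact permutation p = 0.089).

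The 7 other genes together held 2.37 ± 0.135% of all RPKM in control livers and 2.56 ± 0.192% in EtOH livers (SD, n = 6). With Alb the 8 genes held 15.2 ± 1.94% and 17.5 ± 1.75%, so that 2.16 of the difference of 2.36 percentage points lay in Alb. No test was made on these sums, since their members were chosen by name with earlier results known.

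**Figure D2:**
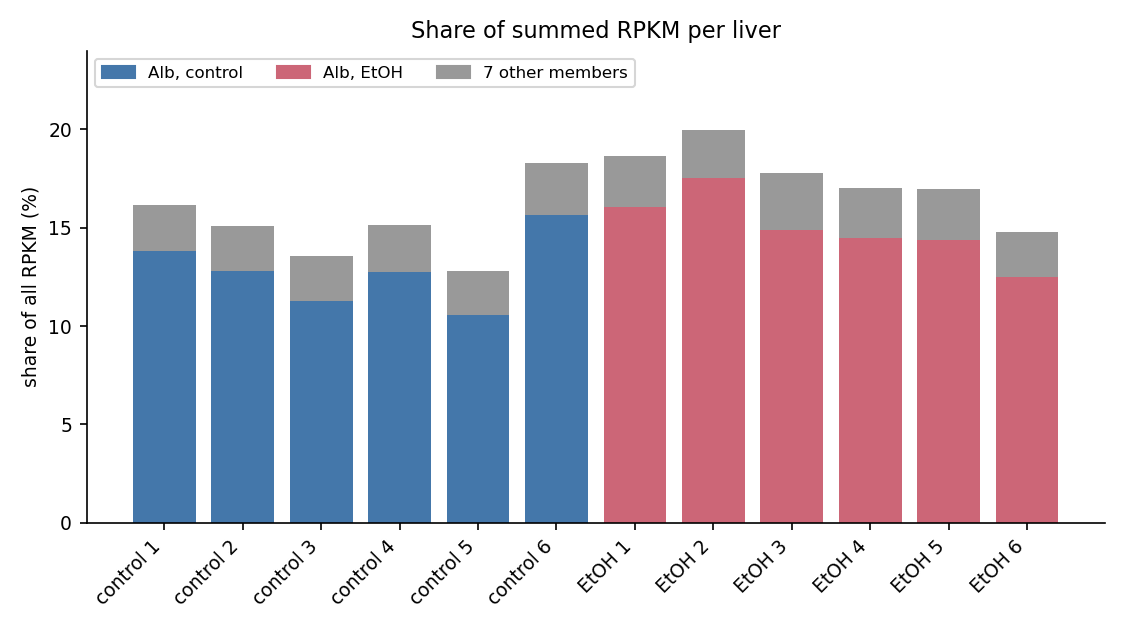
Share of the summed RPKM of each liver, in percent, that was taken by Alb (coloured, control and EtOH) and by the 7 other genes (grey, stacked on top). Alb ranges from 10.6 to 15.7% in control livers and from 12.5 to 17.5% in EtOH livers, and the grey part stays between 2.26 and 2.90%.

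The 3 transcripts whose scaled log2 level followed Alb most closely over the 12 livers, among 11085 that averaged 1 RPKM or more, were Serpind1 (Pearson r = 0.935), Afm (r = 0.921) and Serpina1 (r = 0.907). They encode heparin cofactor II, afamin, a relative of albumin, and alpha-1-antitrypsin. The 12 points share the scaling between livers and the group difference, and these values are given as a description.

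The promoter window of Alb is shown because its gene stood at the top of the order of levels. RefSeq, on build GRCr8, places the window from 250 bases before to 50 after the gene's start at chr14:17906930-17907229 on the minus strand. Capitals mark matches, on either strand, to the C/EBP letters TTGCNNAA and to GTTAAT, letters bound by HNF1, a hepatocyte factor.
Alb: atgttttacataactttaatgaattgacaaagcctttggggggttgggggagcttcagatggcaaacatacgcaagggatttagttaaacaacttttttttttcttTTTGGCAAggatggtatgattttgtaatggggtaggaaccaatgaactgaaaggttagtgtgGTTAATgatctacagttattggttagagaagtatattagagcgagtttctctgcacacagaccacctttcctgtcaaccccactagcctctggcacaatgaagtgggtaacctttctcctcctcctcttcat
The HNF1 letters lay at −82 to −77 from the start and are held by 7.37% of 27457 RefSeq promoters. The C/EBP letters lay at −144 to −137 and are held by 10.5%. Windows were given for 7 of the 10 genes, namely Alb, Ahsg, Hpx, Crp, Orm1, Lcn2 and Cp. The C/EBP letters were found in 6 of these 7, all but Crp, and the HNF1 letters in Alb alone. The STAT letters TTCNNNGAA were found in 0 of 7 against 8.68% of all promoters, and the letters TATAAA in 3 of 7, those of Crp, Orm1 and Cp, against 14.3%. All motifs were searched on both strands, and matches to different motifs did not overlap. The matches describe letters in a window and say nothing of binding in these livers.

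Fetuin-A, a negative acute-phase glycoprotein that inhibits calcification and binds the insulin receptor, was the next gene of albumin's class. Its main row FETUA_RAT.2, on chromosome 11 from 80327147 to 80350829 as deposited, ran from 889 through a median of 1076 to 1256 RPKM in control livers. In EtOH livers it ran from 1170 through 1266 to 1443 RPKM. Control 1, the highest control liver, lay above the 3 lowest EtOH livers, and every other control liver lay below them. The means were 1067 ± 137 and 1290 ± 99.4 RPKM (SD, n = 6). The log2 difference was 0.37 ± 0.10 (SE) with a limma adjusted p of 0.069, and the row was called at 0.046 without control 1, at 0.046 and 0.027 when transcripts averaging under 0.1 or 1 RPKM were left out, and at 0.033 with voom on the recovered reads. The share of all RPKM was 0.194 ± 0.0278% in control and 0.244 ± 0.0177% in EtOH livers (exact permutation p = 0.0043). For RPKM as deposited, the exact permutation p of this row was 0.011.

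The minor row FETUA_RAT.1, which ends at 80354656 and starts where the main row does, stood at 112 ± 20.3 RPKM in control and 159 ± 25.2 RPKM in EtOH livers (SD, n = 6). It ran from 87.4 to 143 RPKM in control and from 134 to 204 RPKM in EtOH livers. It was higher in EtOH livers by 0.60 ± 0.14 on the log2 scale (SE) and was called, with a limma adjusted p of 0.043. With 1 liver left out, the adjusted p lay between 0.025 and 0.094, and the call held only without control 1 or control 6, so that it was lost in 10 of 12 fits. This row held 9.45 ± 0.642% of the summed RPKM of fetuin-A in control and 10.9 ± 1.03% in EtOH livers (exact permutation p = 0.011). How reads that both rows share were assigned is not given in the sources used, so the split between the rows is uncertain.

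Crp, C-reactive protein, a pentraxin that binds phosphocholine on damaged cells and bacteria, was the second most abundant of the 8 genes. Its row on chromosome 13 from 88702175 to 88704041 as deposited rested on 23504 to 75971 reads per liver. In control livers Crp ran from 4215 through a median of 4818 to 5110 RPKM. In EtOH livers it ran from 5127 through 5504 to 6880 RPKM. Every EtOH liver was above every control liver, although the gap between the groups was narrow. The means were 4763 ± 333 and 5706 ± 681 RPKM (SD, n = 6), a ratio of 1.20, with an exact permutation p of 0.0022, which is the smallest this design can give.

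After median scaling the Crp groups overlapped, and the log2 difference was 0.35 ± 0.11 (SE, 95% interval 0.10 to 0.59) with a limma adjusted p of 0.14. As a share of all RPKM, Crp took 0.867 ± 0.0786% in control and 1.08 ± 0.123% in EtOH livers, again without overlap (exact permutation p = 0.0022). The limma adjusted p fell to 0.044 with quantile normalization, to 0.032 when transcripts averaging under 1 RPKM were left out and to 0.043 with voom on the recovered reads, and the log2 difference over the settings on a log2 scale lay between 0.26 and 0.37. With 1 liver left out, the adjusted p ran from 0.12 to 0.24.

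The promoter window of Crp is shown as the only one of the 7 with no C/EBP letters, from RefSeq on build GRCr8 at chr13:87693812-87694111 on the plus strand. It holds neither of the sets of letters that capitals mark, and the letters TATAAA lie at bases 1 to 6 after the annotated start.
Crp: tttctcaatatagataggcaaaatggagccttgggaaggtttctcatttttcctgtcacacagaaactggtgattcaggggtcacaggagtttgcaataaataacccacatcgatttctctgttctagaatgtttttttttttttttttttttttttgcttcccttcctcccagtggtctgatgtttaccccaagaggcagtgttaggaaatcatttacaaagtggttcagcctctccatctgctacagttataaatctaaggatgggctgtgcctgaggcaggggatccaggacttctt

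Haptoglobin and hemopexin clear what red cells release, haptoglobin by binding free hemoglobin and hemopexin by binding heme. The main Hp row, on chromosome 19 from 39443017 to 39447590 as deposited, ran from 3561 through a median of 3900 to 4799 RPKM in control livers and from 3362 through 3607 to 4462 RPKM in EtOH livers. The groups overlapped from 3561 to 4462 RPKM, with means of 4028 ± 506 and 3766 ± 473 RPKM (SD, n = 6). The log2 difference was −0.01 ± 0.12 (SE, 95% interval −0.26 to 0.25, limma adjusted p = 0.99). Hpx, on chromosome 1 from 163319509 to 163327017, ran from 2293 through 2503 to 2847 RPKM in control and from 2289 through 2499 to 2781 RPKM in EtOH livers. Hpx varied least of the 8 genes, with a coefficient of variation of 7.43% over the 12 livers, and its log2 difference was 0.07 ± 0.09 (SE, 95% interval −0.13 to 0.28, limma adjusted p = 0.72). The intervals of both genes exclude a doubling or halving, and the sign of neither difference was stable, that of Hpx turning with the scaling and that of Hp with the filter on low values.

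A minor Hp row with the same position held 0.0866 to 0.375% of the RPKM of Hp. It stood at 8.03 ± 3.91 RPKM in control and 5.08 ± 1.18 RPKM in EtOH livers (SD, n = 6), with a limma adjusted p of 0.43. Control 4, at 15.6 RPKM, was far from the other control livers.

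Ceruloplasmin, the copper-carrying ferroxidase that lets iron bind to transferrin, was listed in 3 rows. The main row Cp.3, on chromosome 2 from 105086278 to 105135367 as deposited, held 98.7 to 99.3% of the RPKM of the gene. It ran from 912 through a median of 1011 to 1197 RPKM in control and from 842 through 950 to 1040 RPKM in EtOH livers. The groups overlapped, with means of 1035 ± 111 and 948 ± 76.5 RPKM (SD, n = 6) and a log2 difference of −0.03 ± 0.09 (SE, 95% interval −0.23 to 0.17, limma adjusted p = 0.89). The minor rows Cp.2 and Cp.1, which end at 105145860, stood below 11 RPKM in every liver, and their limma adjusted p values were 0.71 and 0.75.

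Orm1, alpha-1-acid glycoprotein, a lipocalin that binds basic drugs, showed no shift between the groups larger than the spread between animals. Its row on chromosome 5 from 80325042 to 80328194 ran from 488 through a median of 644 to 929 RPKM in control livers. In EtOH livers it ran from 521 through 653 to 718 RPKM. The EtOH range lay within the control range, whose ends were set by control 1 and control 6. The means were 665 ± 145 and 629 ± 76.7 RPKM (SD, n = 6), and the log2 difference of 0.03 ± 0.14 (SE, 95% interval −0.28 to 0.33) had a limma adjusted p of 0.94.

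A2m, alpha-2-macroglobulin, a protease inhibitor that adult rat liver makes mainly in acute inflammation, was near the limit of detection. All its reads came to 27 in control and 71 in EtOH livers, 3 to 20 per liver. The row, on chromosome 4 from 158103689 to 158153422, ran from 0.159 through a median of 0.241 to 0.449 RPKM in control livers and from 0.325 through 0.443 to 0.922 RPKM in EtOH livers. The EtOH livers were mostly the higher ones, and the groups overlapped. The means were 0.273 ± 0.101 and 0.510 ± 0.214 RPKM (SD, n = 6), a ratio of 1.87 with an exact permutation p of 0.017. In the fit across all transcripts the log2 difference of RPKM + 0.5 was 0.41 ± 0.16 (SE), which understates a change at so low a level, and the limma adjusted p was 0.22. Over the other settings on a log2 scale the adjusted p lay between 0.097 and 0.31, and with 1 liver left out between 0.16 and 0.33. EtOH 1 was the highest liver, and without it the ratio of mean A2m shares of all RPKM was 1.62 (exact permutation p = 0.024), against 1.95 (exact permutation p = 0.013) with it. Relatives of A2m were far more abundant, Pzp at 1343 ± 175 RPKM and Mug1 at 878 ± 102 RPKM in control livers (SD, n = 6), and whether reads of theirs were placed on A2m was not tested.

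Lcn2, lipocalin-2, which withholds iron from bacteria by binding their siderophores and is also stored in neutrophil granules, had 3 reads in control and 7 in EtOH livers. Its row lies on chromosome 3 from 11511403 to 11514809. It was above 0 in 3 of 6 control and 5 of 6 EtOH livers, and the highest values were 0.368 RPKM in control 1 and 0.679 RPKM in EtOH 1. In the livers with no read, a count of 0 allows up to 0.782 to 0.949 RPKM in the controls and 0.731 RPKM in the EtOH liver. The ratio of reads per depth, EtOH to control, was 1.70 with an exact 95% interval of 0.388 to 10.2, and intervals and limits of this kind cover counting error only. The ratio of mean Lcn2 shares of all RPKM was 1.76, and it was 1.12 without EtOH 1 and 2.57 without control 1. A difference in Lcn2 was not detectable at this depth (limma adjusted p = 0.65).

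Neutrophil markers were read beside Lcn2, since its product is carried by those cells. Of 9 listed markers, 6 were above 0 in some liver, and their summed RPKM ran from 1.00 to 3.08 in control and from 0.468 to 3.51 in EtOH livers (exact permutation p = 0.51). Lcn2 varied most of the 8 genes, with a coefficient of variation of 101% over the livers. The transcripts most like it over the 12 livers were Slc38a9 (Pearson r = 0.846), Ddit3 (r = 0.828) and NDC1_RAT (r = 0.824), a description that rests on 10 reads of Lcn2.

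The promoter window of Lcn2 is shown for contrast, because the C/EBP letters it shares with Alb stand before a gene of very low level. RefSeq places it on build GRCr8 at chr3:36081731-36082030 on the minus strand, with the C/EBP letters at −191 to −184.
Lcn2: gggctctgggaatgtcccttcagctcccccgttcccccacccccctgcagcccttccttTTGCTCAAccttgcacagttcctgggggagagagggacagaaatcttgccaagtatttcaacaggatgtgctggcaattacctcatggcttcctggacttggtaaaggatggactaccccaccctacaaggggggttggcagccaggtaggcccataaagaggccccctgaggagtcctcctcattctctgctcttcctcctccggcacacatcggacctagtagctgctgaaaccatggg

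By mean RPKM, which is a level per transcript length, the order over the 12 livers was Alb, Crp, Hp, Hpx, Cp, Orm1, A2m and Lcn2. Alb exceeded Crp by a factor of 14.3, and the ratio within a liver ran from 11.5 to 17.0. Crp exceeded Hp in 11 of 12 livers, and their ranges overlapped, so these neighbours did not stand apart beyond their spread. Hp exceeded Hpx, Hpx exceeded Cp and Cp exceeded Orm1 in 12 of 12 livers, with overlapping ranges only between Cp and Orm1. A wide gap followed, Orm1 being at 647 RPKM and A2m at 0.391 RPKM on average. A2m was listed above Lcn2 in 11 of 12 livers, with overlapping ranges, but in 4 of these livers Lcn2 had no read and the limit that a count of 0 allows lay above A2m, so the order there is undecided. In the other livers Lcn2 rested on 1 to 3 reads, and in control 6 it stood at 0.226 RPKM beside 0.230 RPKM for A2m. The order is thus uncertain in those livers too.

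**Figure D3:**
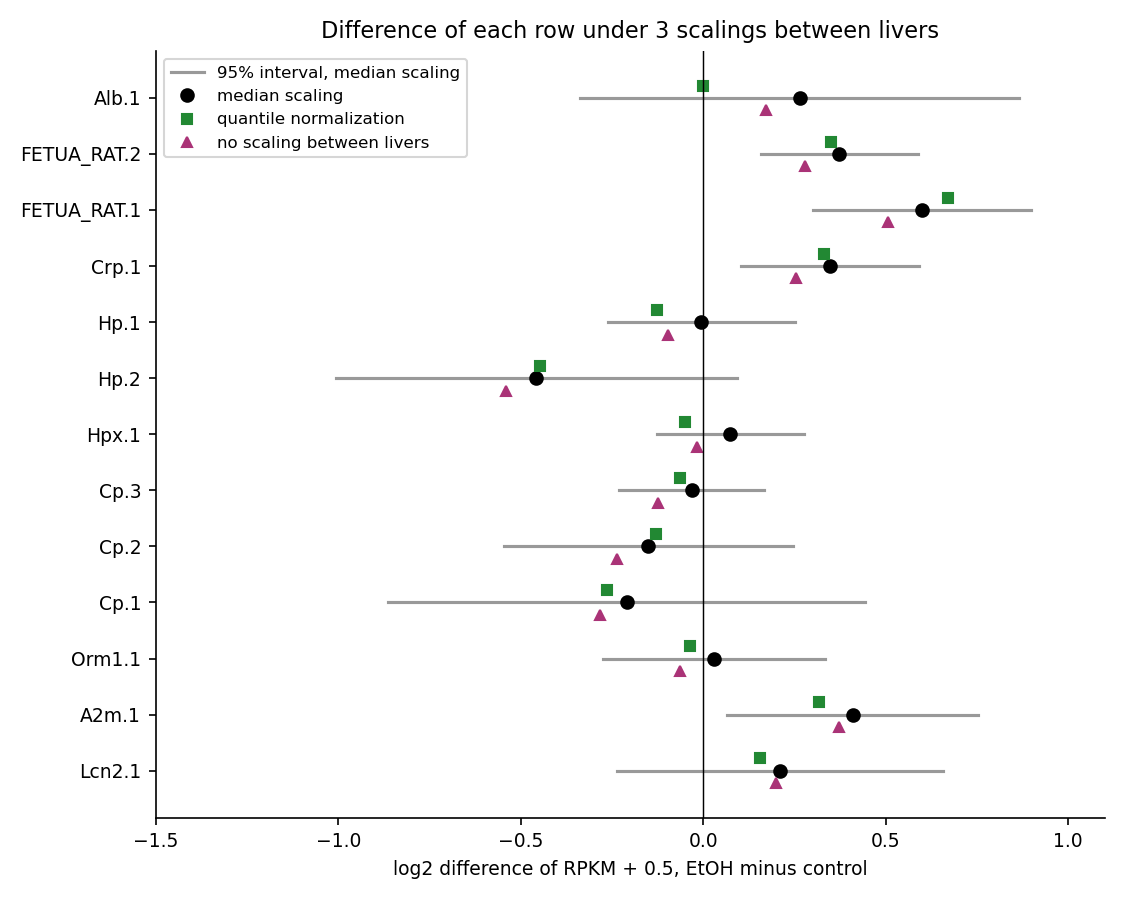
Difference between EtOH and control livers on the log2 scale of RPKM + 0.5 for the 11 rows and the 2 rows of fetuin-A; circles and grey lines are the estimate and its 95% interval after median scaling, squares are quantile-normalized values and triangles are values without scaling between livers. Alb is at 0.26 with median scaling and at 0.00 with quantile normalization, which gives the top transcript the same value in every liver, and Hpx and Orm1 change sign with the scaling.

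Rows responded unequally to the scaling between livers. Quantile normalization gives the highest-ranked transcript of each liver the same value, and since that was Alb in all 12 livers, its log2 difference was 0.00 under it. Without scaling, 648 transcripts were called lower and 126 higher, so that 83.7% of the calls were lower, against 63.5% with median scaling and 53.4% with quantile normalization. Without scaling, the differences of Hpx and Orm1 were −0.02 and −0.06.

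Other genes of the acute-phase response were read from 5 lists, of which 77 genes outside the members were tested and 7 were called, beside 2.44% of all transcripts (0.893% higher and 1.55% lower), against which the counts of each list below are to be read. Each list gene was read in its most abundant row only, so its values need not hold for other rows of the gene. Of 24 tested positive acute-phase genes, the members included, 0 were called higher and 1 lower, with a median log2 difference of 0.08 against 0.02 over all transcripts. The gene called was Hamp, which encodes hepcidin, the hormone that closes the iron exporter ferroportin. Hamp ran from 452 through a median of 524 to 862 RPKM in control livers and from 237 through 297 to 362 RPKM in EtOH livers, without overlap. It was lower by 0.81 ± 0.15 on the log2 scale (SE, limma adjusted p = 0.019), and the call held in 12 of the 12 fits that left out 1 liver. The call was lost with the unmoderated test on square-root quantile-normalized values. It was also lost with the animal number as a replicate block (limma adjusted p = 0.079). The 3 fibrinogen chains, Fga (listed as FIBA_RAT), Fgb and Fgg, had log2 differences of 0.12, 0.02 and 0.04, and the metallothioneins Mt1a and Mt2A had 0.64 and 0.83, and none of the 5 was called.

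Of 14 tested negative acute-phase genes, Alb and fetuin-A included, 2 were called higher and 0 lower, beside 0.893% and 1.55% of all transcripts, and the median log2 difference was 0.21. Both were murinoglobulins, protease inhibitors of the alpha-2-macroglobulin family whose rat genes are close copies of each other. Mug2 ran from 2.00 through 2.39 to 2.78 RPKM in control and from 3.29 through 3.91 to 5.07 RPKM in EtOH livers, without overlap, and was higher by 0.70 ± 0.13 on the log2 scale (SE, limma adjusted p = 0.016). Mug1 stood at 878 ± 102 RPKM in control and 1066 ± 72.7 RPKM in EtOH livers (SD, n = 6), higher by 0.38 ± 0.09 (SE, limma adjusted p = 0.040). With 1 liver left out, the call of Mug2 held in 12 of 12 fits and that of Mug1 in 3, those without control 1, control 6 or EtOH 1. Reads of Mug1 and Mug2 may have been divided between near-identical copies, so the values of either are uncertain. Ttr, transthyretin, and Rbp4, the retinol carrier, had log2 differences of −0.002 and 0.005. Fetub, the paralog of fetuin-A, was at 2064 ± 182 RPKM in control and 1542 ± 93.5 RPKM in EtOH livers, without overlap in RPKM as deposited. After median scaling the Fetub groups overlapped, and the log2 difference was −0.33 with a limma adjusted p of 0.053. Fetub is named after its values were seen.

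Of 28 tested genes that carry the acute-phase signal to these promoters, 3 were called higher and 0 lower, beside 0.893% and 1.55% of all transcripts, with a median log2 difference of 0.19. Nr3c1, the glucocorticoid receptor, ran from 15.0 through 18.9 to 21.5 RPKM in control and from 20.4 through 26.1 to 28.2 RPKM in EtOH livers, a difference of 0.51 ± 0.10 (SE, limma adjusted p = 0.020). Il1r1, the receptor of interleukin-1, ran from 6.61 through 10.8 to 11.6 RPKM in control and from 11.7 through 16.4 to 24.2 RPKM in EtOH livers without overlap, a difference of 0.78 ± 0.16 (SE, limma adjusted p = 0.030). Il6st, the signal-transducing subunit of the interleukin-6 receptor, was listed as IL6RB_RAT at 35.8 ± 7.09 RPKM in control and 47.0 ± 4.61 RPKM in EtOH livers (SD, n = 6), a difference of 0.50 ± 0.12 (SE, limma adjusted p = 0.049). With 1 liver left out, the call of Nr3c1 held in 12 of 12 fits, that of Il1r1 in 6 (lost without control 2 or any of EtOH 2 to 6) and that of Il6st in 3 (held without control 1, 5 or 6). Stat3 had a log2 difference of 0.28 and Socs3, the target gene that closes the interleukin-6 signal, one of 0.20, with limma adjusted p values of 0.12 and 0.73. The C/EBP genes Cebpa and Cebpb, named after their values were seen, had differences of −0.58 and −0.51 with limma adjusted p values of 0.17 and 0.19. Onecut1, a hepatocyte factor named on the same footing, was read, like every list gene, in its most abundant row only, here Onecut1.2. This row was at 11.9 ± 9.61 RPKM in control and 38.9 ± 6.93 RPKM in EtOH livers without overlap (SD, n = 6), with a limma adjusted p of 0.11. Its control values ran from 0 to 28.7 RPKM and were above 0 in 5 of 6 livers.

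Of 13 tested structural relatives of the members, 2 were called higher and 0 lower, beside 0.893% and 1.55% of all transcripts. Both were the murinoglobulins, and the median log2 difference was 0.16. Afm and Gc, members of the albumin family, had log2 differences of 0.34 and 0.16 with limma adjusted p values of 0.091 and 0.40. Apcs, the other short pentraxin beside Crp, was at 705 ± 52.5 RPKM in control and 759 ± 47.3 RPKM in EtOH livers (SD, n = 6, limma adjusted p = 0.19). Of 11 tested receptors and partners, 1 was called higher and 0 lower, beside the same shares of all transcripts, and the median was 0.01. This was Cd163, the macrophage receptor for haptoglobin bound to hemoglobin, at 6.19 ± 1.17 RPKM in control and 9.38 ± 1.93 RPKM in EtOH livers (SD, n = 6), a difference of 0.64 ± 0.15 (SE, limma adjusted p = 0.045) whose call held in 2 of the 12 fits that left out 1 liver, those without control 6 or EtOH 6. Cd163 is also a marker of Kupffer cells, the macrophages of the liver. Of 6 tested Kupffer markers, Clec4f, Cd163 and Vsig4 were called higher, beside 0.893% of all transcripts, and the summed RPKM ran from 108 to 169 in control and from 148 to 189 in EtOH livers (exact permutation p = 0.019). Of 3 tested endothelial markers, Pecam1, Lyve1 and Cdh5, none was called by limma, and 2 had an unadjusted p below 0.05, against 16.0% of all transcripts tested. The summed RPKM of the 3 ran from 24.5 to 31.3 in control and from 27.8 to 38.6 in EtOH livers (exact permutation p = 0.017). Clec4f made the largest part of the Kupffer sum, at 66.4 RPKM in control and 82.4 RPKM in EtOH livers on average. The sums of stellate cell, cholangiocyte and lymphocyte markers had exact permutation p values of 0.19, 0.85 and 0.48. Marker genes, too, were chosen with earlier results known, so the p values of their sums are given as a description. The part of Kupffer and endothelial cells in the values of Cd163 and Il1r1 was not tested.

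**Figure D4:**
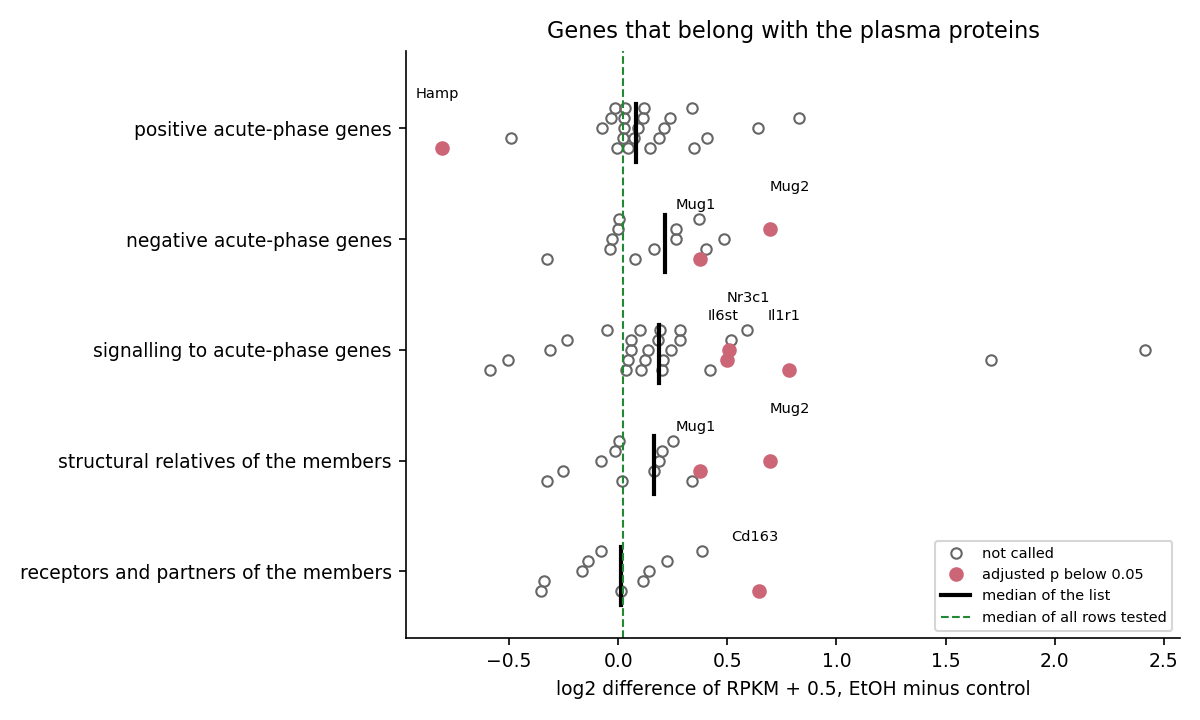
Log2 difference of RPKM + 0.5, EtOH minus control, for each tested gene of 5 lists of acute-phase genes, their signalling, relatives and receptors; filled points were called at an adjusted p below 0.05, open points were not, black bars are list medians and the dashed line is the median over all transcripts. Hamp, at −0.81, is the only filled point to the left of zero, and Mug1 and Mug2 appear in both lists that hold them.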

How the data were processed

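RNA-Seq of 6 EtOH and 6 control livers was used. The authors mapped paired-end reads of 101 nucleotides in CLCbio Genomics Workbench 4.9 and deposited RPKM values per liver. Positions are as deposited, since the build is not given in the sources used. The authors also deposited score values (a fold change and a test statistic), p-values and FDR values of their own comparison, which were not used. The study's square root and quantile steps are not in the deposited RPKM. Relative depths were taken from the steps between low RPKM values. Reads were then recovered as the smallest whole numbers that fit the ratios between livers, within a tolerance of 0.01 reads. All 21718 transcripts above 0 could be fitted. The 2052 transcripts above 0 in only 1 liver fit at 1 read whatever their true count, so their reads are not known.

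RPKM was scaled by the median ratio over transcripts above 0 in all 12 livers, and log2(RPKM + 0.5) was compared with limma 3.58.1 (R 4.3.3, trend) with Benjamini-Hochberg adjustment over 21718 transcripts at 0.05. Median scaling replaced the study's quantile step because the latter fixes the top transcript. For Alb the trend gave an SE of 0.278 and no trend gave 0.125. Other steps used Python 3.11.15, numpy 2.4.6, pandas 2.3.3, scipy 1.17.1 and matplotlib 3.10.9. Single values had two-sided exact permutation tests. Each liver is 1 animal.

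The members and lists were chosen with earlier results of these data known. The text names all member rows, up to 6 called genes per list or the one with the smallest p, the 3 transcripts most like Alb and like the most variable member, and markers beside a result. Some list genes are named as examples after their values were seen. Fetuin-A, FIBA_RAT and IL6RB_RAT were matched by UniProt entry name, and Cxcr2 and Plin1 by older RefSeq symbols, also after the table was seen. Promoters were matched by symbol in RefSeq GRCr8. Alternatives were other pseudocounts, scalings and filters, square-root tests, no trend, a block by animal number, voom on recovered reads, summed rows, and leaving out each liver.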

Additional observations from a re-analysis of the deposited data

Results flagged for a closer look

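In 28 groups of 6 livers, 3 values lay farther from their group than Dixon's 95% limit allows, and chance gives about 1 such group in 20. The minor Hp row of control 4 was at 15.6 RPKM, the next control liver being at 7.80 RPKM. A2m in EtOH 1 was at 0.922 RPKM, next to 0.545 RPKM, and Lcn2 in the same liver was at 0.679 RPKM, which is 3 reads, next to 0.236 RPKM. Without EtOH 1, no call among the 11 rows changed.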

How the results depend on the processing

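The number of the 11 rows called, 0 in the analysis as reported, was 1 (Crp) with quantile normalization, with the unmoderated test on square-root quantile-normalized values, at a mean RPKM of at least 1 and with voom on the recovered reads, and 0 in every fit without 1 liver. Of all transcripts, 322 were called with the square-root quantile test, 872 at a mean RPKM of at least 1 and 232 to 606 without 1 liver. Of the 77 list genes, 7 were called as reported, 3 with the square-root quantile test, 12 and 13 at a mean RPKM of at least 0.1 and 1, 4 without a trend and 3 to 9 without 1 liver. Over 11 other settings on all livers, the calls of Mug2 and Nr3c1 held in 10 and those of Hamp and Il1r1 in 9. That of Mug1 held in 7, and those of Il6st and Cd163 in 6. These last 3 genes lost the call without scaling between livers and without a trend, among other settings. FETUA_RAT.1 lost its call with the square-root quantile test (adjusted p = 0.074) and without a trend (0.065). With the animal number as a replicate block, 109 transcripts and 0 list genes were called, and FETUA_RAT.1 was not (adjusted p = 0.15). No pairing of the animals by number is given in the sources used. Same-numbered livers correlated at −0.068 to 0.038, and 1 of 6 controls correlated best with its own number. These correlations rest on few pairs of livers and cannot exclude a pairing.

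The log2 differences of Hpx and Orm1 turned to −0.05 and −0.037 with quantile normalization and to −0.018 and −0.063 without scaling. On the square-root quantile scale the differences of Hpx and Orm1 were also negative, at −0.921 and −0.368. Those values are differences of square-root RPKM and cannot be read as log2 differences. The log2 difference of Hp turned to 0.007 at a mean RPKM of at least 1 and to 0.012 with voom. Without 1 liver, Hp ran from −0.058 to 0.039, Orm1 from −0.057 to 0.147 and Cp.3 from −0.069 to 0.027. The share ratio of Alb ran from 1.13 to 1.22 without 1 liver, that of Hp from 0.94 to 1.00 and that of Orm1 from 0.939 to 1.07. The ratio of Hpx was 0.987 in RPKM as deposited and 0.997 in recovered reads, and that of Orm1 was 1.01 with Alb left out of the sum and 1.00 after median scaling. The cause of these changes was not tested. Depth limits A2m and Lcn2, with 98 and 10 reads in all.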
